A study of Mus musculus with 4 samples.

Results

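The mature B cell and the plasma cell were followed through 9 of their genes in mouse middle ears exposed to diesel exhaust particles (DEPs), the carbon-rich particles of diesel fumes. The genes are Ms4a1, Cd22, Cr2, Fcer2a, Blk and Cd79b for the mature B cell and Jchain, Tnfrsf17 and Mzb1 for the plasma cell. They were chosen by name, and every probe whose RefSeq accession belongs to one of them was taken. This gave 10 probes of the 39429 on the array, or 9 genes of the 20971 that could be named. Cr2 has 2 probes and each other gene has 1.

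The extracts came from male BALB/c mice aged 6 to 10 weeks, of which the study used 9. Exposure was by inhalation of DEPs, 1 h a day over 5 days, and mice were killed on day 14, when the temporal bone around the middle ear was taken. The control extracts are labelled as ears with no treatment. Each of 4 two-colour arrays carried 1 DEP extract in the red dye Cy5 and 1 control extract in the green dye Cy3 by the source names, although the labels list both treatments under the red channel. The labels call the arrays biological replicates, and how many mice stand behind an extract is not given in the sources used here. The dyes were never swapped, so the preference of a transcript for a dye cannot be told apart from exposure.

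B cells recognise antigen through a membrane immunoglobulin that signals through the CD79 pair, and the strength of that signal is tuned by co-receptors such as CR2 and CD22. After meeting antigen they can become plasma cells, which switch off many of these surface genes and turn to the secretion of antibody. The healthy middle ear is poor in lymphoid cells, whereas marrow of the bone around it makes B cells and keeps long-lived plasma cells. A bulk extract measures RNA, so fewer cells of a type and less RNA per cell cannot be told apart in any value below.

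All ratios are log2 of DEP over control, as the channels are labelled. This direction is opposite to the one in which the study describes the genes it followed up, and every sign below turns if the channels are the other way round. No member had an adjusted p under 0.05 in limma, and none of all 31577 probes tested had one (0%). Without adjustment 2 of the 9 genes had a p under 0.05, Fcer2a and Tnfrsf17. Both were higher in the DEP channel. Such a p was found for 18.6% of all probes, 9.6% as higher and 8.96% as lower. Cr2, Fcer2a and Tnfrsf17 were higher in DEP on all 4 arrays, as were 15.6% of all probes. None of the 9 genes was lower on all 4 arrays, as were 11.5% of all probes. The mean of no member was past 2-fold, a limit that 6.69% of probes passed. By their means 6 of the 9 genes lay above 0, as did 9928 of the 17962 named genes tested. The median over the 9 genes was 0.35 on the log2 scale against 0.04 over all named genes, and it was 0.06 without array 3 and 0.15 after normexp and loess. Set against these shares, 2 and 3 genes of 9 are small counts, and nothing particular to the members was read from them.

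**Figure D1:**
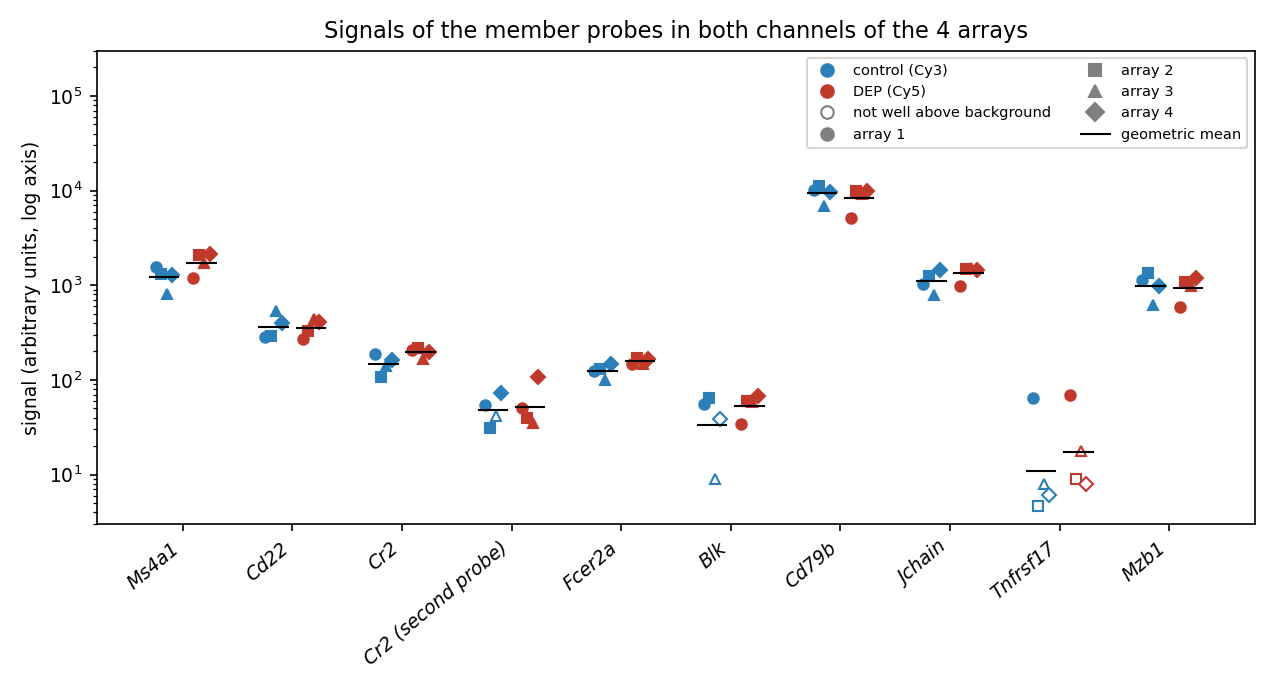
Signals of the 10 member probes after scaling between arrays, in arbitrary units on a log axis, with control in blue, DEP in red, a marker shape for each array, hollow markers where a signal was not well above background and a line at the geometric mean of each channel. The channels overlap for 9 of the 10 probes, and the signals of Tnfrsf17 are filled on array 1 alone.

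The surface genes of the mature B cell are given first. Ms4a1, which encodes CD20, had signals of 1182, 2098, 1714 and 2131 in the DEP channel and 1573, 1321, 814 and 1285 in the control channel on arrays 1 to 4. DEP was the lower channel on array 1 and the higher one on the other arrays, and the ranges of the channels overlapped. The ratios were -0.41, 0.67, 1.07 and 0.73, and their mean was 0.51 ± 0.64 (SD, n = 4 arrays; standard error 0.27), for which limma gave an adjusted p of 0.359. An exact sign-flip permutation test of these ratios gave p = 0.25, two-sided, where 4 arrays cannot give less than 0.13. Without array 1 the mean was 0.82, with an unadjusted p of 0.00444 and an adjusted p of 0.196 in limma, and without array 3 it was 0.33, with an unadjusted p of 0.328.

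Cd22 encodes a sialic-acid-binding receptor that restrains signalling of the antigen receptor. Its signals were 270, 329, 444 and 413 in DEP and 281, 290, 532 and 396 in control. Both channels were highest on array 3, and the ratios lay close to 0 at -0.06, 0.18, -0.26 and 0.06. The mean ratio was -0.02 ± 0.19 (SD, n = 4 arrays), with a 95% interval from -0.33 to 0.29 and an adjusted p of 0.940 in limma. The sign of so small a mean is not settled, as it was 0.06 without array 3.

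Cr2 encodes complement receptor CD21, which makes a B cell more responsive to antigen coated with complement. The brighter of its probes (A_55_P1971729) had signals of 206, 216, 166 and 198 in DEP and 189, 108, 140 and 164 in control. DEP was the higher channel on every array, most of all on array 2, where the control signal was the lowest of the 4. The mean ratio was 0.41 ± 0.40 (SD, n = 4 arrays), made of 0.13, 1.00, 0.24 and 0.27, with an adjusted p of 0.307 in limma and an exact sign-flip p of 0.13. Array 2 carried much of this, since the mean was 0.21 without it. The second probe (A_55_P1971724) was dimmer, at 50.6, 39.6, 34.9 and 106 in DEP and 54.5, 31.0, 41.9 and 73.1 in control, the last but one of these not well above background. It was higher in DEP on 2 arrays and lower on 2, with a mean ratio of 0.13 ± 0.38 and an adjusted p of 0.704 in limma. The direction of Cr2 on all 4 arrays thus holds for 1 of its 2 probes.

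Fcer2a encodes CD23, the low-affinity receptor for IgE on mature B cells. Its signals were 149, 172, 148 and 165 in DEP and 125, 131, 99.3 and 148 in control. Every DEP signal lay above every control signal, by the smallest margin between array 3 of DEP (148.35) and array 4 of control (148.14). Such a separation, with DEP above, was found for 7.77% of the 14286 genes measured in full, that is well above background in each channel of every array, and for 1 of the 7 members among these. How many of all genes were separated with DEP below was not counted. The separation of Fcer2a was lost with the signals as deposited, where DEP ranged from 131 to 197 and control from 87.6 to 165, with scaling to the 75th percentile and with normexp correction. The ratios do not rest on that scaling. They were 0.25, 0.39, 0.58 and 0.16, with a mean of 0.35 ± 0.18 (SD, n = 4 arrays), a 95% interval from 0.04 to 0.66, an unadjusted p of 0.0350, an adjusted p of 0.242 in limma and an exact sign-flip p of 0.13. With 1 array left out the mean lay between 0.27 and 0.41 and the unadjusted p in limma between 0.0527 and 0.141, so that each omission took it past 0.05. After normexp and loess the mean was 0.19.

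Cr2 and Fcer2a are the members measured in full that were higher in DEP on all arrays, so stretches before their transcription starts are shown, from the promoter table of RefSeq (mouse GRCm38.p6). That table lists starts for 5 of the 9 genes, namely Cr2, Cd22, Jchain, Tnfrsf17 and, with 3 starts, Fcer2a. Each stretch is the 150 bases before a start, read 5′ to 3′ on the strand of the gene, and capitals mark the E-box CAGGTG (shown as CACCTG where it lies on the other strand) and the E-box CAGCTG.
Cr2, chr1:195176720-195176869, minus strand: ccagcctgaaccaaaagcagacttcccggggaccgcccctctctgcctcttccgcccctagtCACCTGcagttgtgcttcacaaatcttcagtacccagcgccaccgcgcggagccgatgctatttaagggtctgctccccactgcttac
Fcer2a, chr8:3690862-3691011, minus strand: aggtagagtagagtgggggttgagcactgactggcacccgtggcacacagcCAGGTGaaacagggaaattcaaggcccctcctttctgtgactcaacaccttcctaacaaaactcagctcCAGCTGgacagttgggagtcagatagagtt

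Both strands of the 250 bases before and 50 bases after each listed start were searched for 4 motifs. The E-box CAGGTG, the letters that the B lineage factor E2A can bind, lay at -88 from the start of Cr2 and at -244 and -99 from this start of Fcer2a. It was also found at -245 for Cd22 and at 5 for Jchain, that is after the start, and 20.2% of all 32851 promoters in the table hold it. CAGCTG, found at -30 for Fcer2a, is held by 16.3%. The motif of TTC and GAA with any 4 bases between them, to which STAT6 can bind, lay at -168 from the same start of Fcer2a and are held by 6.95%. The octamer ATGCAAAT, the site of the OCT factors of immunoglobulin promoters, is held by 1.74% and was not found in these windows. Neither the other starts of Fcer2a nor the start of Tnfrsf17 held any of the 4.

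Blk and Cd79b stand next to the antigen receptor. Blk is a SRC-family kinase of B cells, and its signals were 34.6, 60.7, 58.9 and 67.4 in DEP and 55.7, 64.9, 9.10 and 39.2 in control. DEP was well above background on all 4 arrays, and control on arrays 1 and 2 alone. The highest ratio, 2.69, came from array 3, where the control signal could not be told from background, and the other ratios were -0.69, -0.10 and 0.78. The mean of 0.67 ± 1.48 (SD, n = 4 arrays; adjusted p of 0.558 in limma) was -0.00030 without array 3 and 1.13 without array 1. On the arrays measured in both channels DEP was thus the lower one.

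Cd79b encodes the beta chain of the pair that carries the signal of the antigen receptor, and its probe was bright throughout. Signals were 5150, 9860, 9274 and 9891 in DEP and 10043, 11176, 6953 and 9767 in control. On array 1 the DEP signal lay well below the other DEP signals, and the ratio there was -0.96, against -0.18, 0.42 and 0.02 on the others. The mean ratio was -0.18 ± 0.58 (SD, n = 4 arrays), with an adjusted p of 0.710 in limma and an exact sign-flip p of 0.75. Without array 1 it was 0.08.

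**Figure D2:**
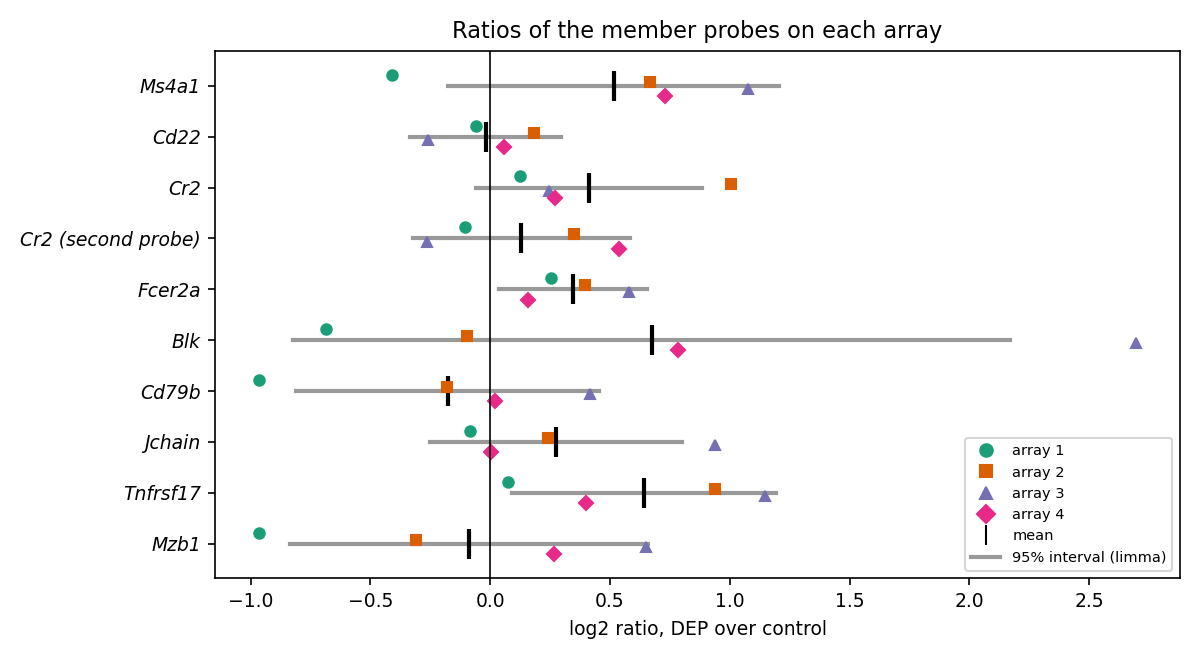
Log2 ratios of DEP over control for the 10 member probes, with 1 marker per array, a black tick at the mean and a grey bar for limma's 95% interval. The intervals of Fcer2a and Tnfrsf17 lie above 0 and the other 8 include it, and array 1 gives the lowest ratio of 7 of the 9 genes. The ratios of all probes spread most on array 1.

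The genes of the plasma cell come next. Jchain encodes the joining chain of IgM and IgA polymers. Its signals were 974, 1469, 1525 and 1450 in DEP and 1032, 1243, 796 and 1445 in control. The channels were nearly equal on arrays 1 and 4 and furthest apart on array 3, where the control signal was low. The ratios of -0.08, 0.24, 0.94 and 0.00 had a mean of 0.28 ± 0.46 (SD, n = 4 arrays), an adjusted p of 0.498 in limma and an exact sign-flip p of 0.375. The mean was 0.05 without array 3.

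Mzb1 encodes a chaperone of the endoplasmic reticulum that helps immunoglobulin to assemble. Signals were 584, 1095, 980 and 1191 in DEP and 1138, 1358, 623 and 989 in control. DEP was the lower channel on arrays 1 and 2 and the higher one on arrays 3 and 4. The mean ratio was -0.09 ± 0.70 (SD, n = 4 arrays), with a 95% interval from -0.83 to 0.66 and an adjusted p of 0.884 in limma, and it was 0.20 without array 1. Its probe is printed on 10 spots of each array, which gives the error of a spot within an array. The spread between arrays holds labelling, dye and hybridisation as well as the extracts. The SD over the 10 spots was 0.041, 0.048, 0.036 and 0.029 on arrays 1 to 4, around means of -0.96, -0.31, 0.65 and 0.27. Against an SD of 0.70 between arrays the spots of an array thus scarcely differed, and the 4 arrays did not overlap.

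**Figure D3:**
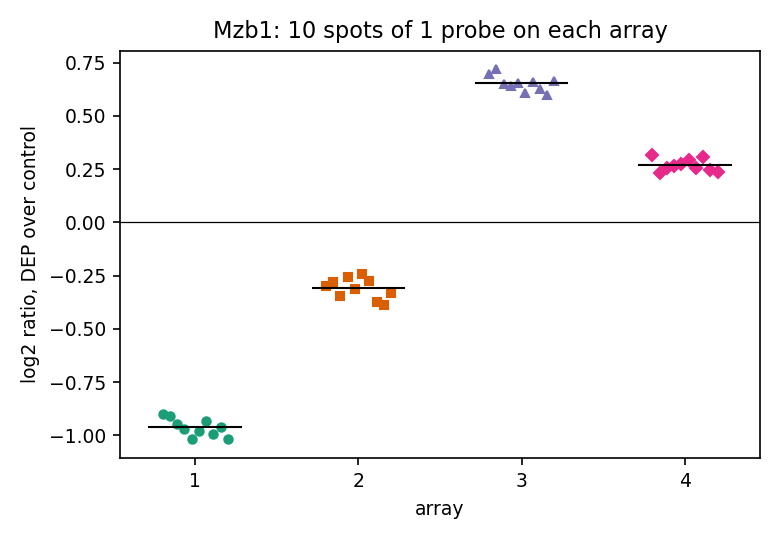
Log2 ratios of DEP over control for the 10 spots of the Mzb1 probe on each of the 4 arrays, with a line at the mean of each array. Spots of an array lie within a narrow band, and the bands lie on both sides of 0.

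Tnfrsf17 encodes BCMA, the receptor through which plasma cells receive survival signals from the factors BAFF and APRIL. Its signals were 68.6, 9.02, 17.7 and 7.98 in DEP and 65.0, 4.71, 8.0 and 6.04 in control. Both channels were well above background on array 1 and neither was on the other arrays. On array 1 the ratio was 0.08. The unadjusted p of 0.0303 (adjusted p of 0.232, limma) rests on ratios of 0.94, 1.15 and 0.40 between signals of the other arrays that were not well above background, so they are no measured folds. The counts and the median over the 9 genes include this gene. Over the 7 members measured in full, 1 had an unadjusted p under 0.05, 2 were higher in DEP on all arrays and the median was 0.28. Of all 22401 probes measured in full, 12.6% had such a p in the same fit and 14.7% were higher on all arrays. The median over all genes so measured was 0.03.

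By array, the ratio was lowest on array 1 for 7 of the 9 genes, while Cd22 was lowest on array 3 and Fcer2a on array 4. How many of all genes had their lowest ratio on array 1 was not counted. Over all probes the ratios spread most on that array, with an SD of 0.97, against 0.69, 0.66 and 0.63 on arrays 2 to 4. The median ratio of the mature B cell genes was -0.23, 0.29, 0.50 and 0.21 on arrays 1 to 4, and that of the plasma cell genes was -0.08, 0.24, 0.94 and 0.27. Over the members measured in full, 5 and 2 genes, these medians were -0.06, 0.39, 0.42 and 0.16 for the mature B cell and -0.52, -0.03, 0.80 and 0.14 for the plasma cell. In both readings the median of each group was lowest on array 1 and highest on array 3. Over all named genes tested the medians were -0.03, 0.08, 0.03 and 0.06.

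How far the members spread over arrays was set side by side for the channels. The SD of the log2 signals was larger in control for 6 of the 7 members measured in full, with medians of 0.37 in control and 0.33 in DEP. It was larger in control for 57.23% of all 14280 genes compared in the same way. With the signals as deposited the medians were 0.52 and 0.22, again larger in control, for 7 of 7 members and 56.53% of all genes.

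Other genes of the B lineage were read from a list of 25, all of which had a probe. By their means 19 were higher in DEP and 6 lower, with a median of 0.14, and the median was -0.24, 0.20, 0.38 and 0.21 on arrays 1 to 4. Under the alternatives the median by their means ran from 0.08 without array 3 to 0.30 with normexp and median centring. An unadjusted p under 0.05 was found for 2 of the 25 as higher and 2 as lower, named here for that reason. The higher ones were Fcmr, the receptor for IgM, at 0.64 ± 0.47 (SD, n = 4 arrays; adjusted p of 0.224), and Cxcr5, the receptor that leads B cells to follicles, at 0.47 ± 0.35 (adjusted p of 0.248), whose control channel was well above background on 3 arrays. Lower were Btk, the kinase behind the antigen receptor, at -0.53 ± 0.40 (adjusted p of 0.242), and Pax5, the factor that maintains B cell identity, at -0.42 ± 0.33 (adjusted p of 0.266). These adjusted values are from limma, and each of the 4 genes had 1 sign on all arrays.

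Further defining genes of the lineage were present in both channels of every array. Cd79a, the partner of Cd79b, had a mean ratio of 0.29 ± 0.37 (SD, n = 4 arrays), and Ebf1, an early B cell factor, had 0.01 ± 0.40. Both were below 0 on array 1 alone, at -0.16 and -0.55. Of the brightest genes of the list, Ly6d had 0.53 ± 1.54, Blnk 0.03 ± 0.25, Spib 0.24 ± 0.46, Pou2af1 0.29 ± 0.66 and Cd72 -0.04 ± 0.16. Ly6d, a surface protein that early B cells share with squamous epithelium, ran from 2.55 on array 1 to -1.19 on array 4.

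**Figure D4:**
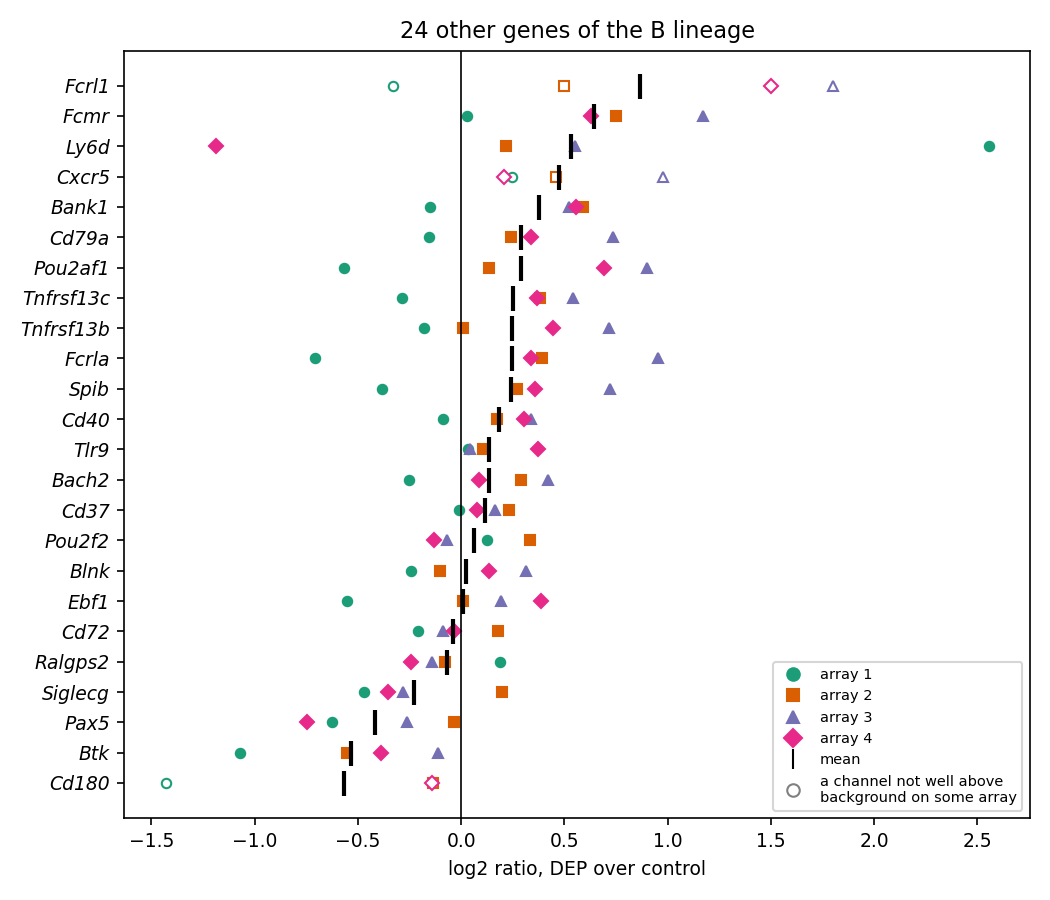
Log2 ratios of DEP over control for 24 other genes of the B lineage, ordered by their mean (black tick), with 1 marker per array and hollow markers where a channel was not well above background on some array. Most genes have array 1 on the left. Array 3 is on the right for many of them and another array for the rest, and Ly6d has array 1 on the far right.

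Genes of antibody secretion varied in how they ran over the arrays. Of a list of 17, 13 had a probe, while Ighm, Ighg1, Igha and Igkc were not analysed here. By their means 8 were higher and 5 lower, with a median of 0.13 that was -0.02 without array 1, and on arrays 1 to 4 the median was 0.07, 0.36, 0.08 and -0.25. Xbp1, the factor that drives the secretory apparatus, had a mean ratio of -0.12 ± 0.32 (SD, n = 4 arrays), and Irf4, a factor that plasma cells need, 0.13 ± 0.53, with ratios of -0.53, -0.04, 0.66 and 0.45 on arrays 1 to 4. Prdm1, which encodes the plasma cell factor BLIMP1, had 1.15 ± 1.37, and Sdc1, the syndecan of plasma cells and of epithelia, had 0.69 ± 2.05. Prdm1 and Sdc1 were highest on array 1, at 2.97 and 3.31, and lowest on array 4, at -0.25 and -1.70. The endoplasmic reticulum genes Creld2 and Txndc5 had 0.09 ± 0.43 and 0.16 ± 0.19, and Sec11c, part of the signal peptidase, -0.23 ± 0.08, lower on all arrays. Named for an unadjusted p under 0.05, Cd28 was higher at 0.36 ± 0.22 (p of 0.0375, adjusted p of 0.247, limma), and Fkbp11 was lower at -0.94 ± 0.23 (p of 0.000883, adjusted p of 0.107, limma). Fkbp11, a foldase of secretory cells, was well above background on 2 arrays in each channel.

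Precursors of B cells, which marrow holds, had their lowest median on array 1 too. The median over 11 genes was -0.68, 0.06, 0.62 and 0.63 on arrays 1 to 4, and 0.21 by their means, which was 0.45 without array 1, 0.01 without array 3 and 0.06 without array 4. None had an unadjusted p under 0.05. Vpreb3 had a mean ratio of 0.21 ± 0.57 (SD, n = 4 arrays), Vpreb1, a part of the surrogate light chain, -0.02 ± 0.71, and Dntt, which adds bases during gene rearrangement, 0.26 ± 0.75. Cd93 had -0.28 ± 0.31 and Lef1 0.01 ± 0.28.

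The medians for genes of other marrow cells were also lowest on array 1. The median over 10 genes of neutrophils and their precursors was -1.01, -0.03, 0.61 and 0.29 on arrays 1 to 4, with 5 genes higher and 5 lower by their means. That over 9 erythroid genes was -0.77, 0.38, 0.46 and 0.20. Macrophage genes, 8 of them, gave -0.28, -0.01, 0.44 and 0.60, and 12 T cell genes gave -0.09, 0.16, 0.28 and 0.19. The summed signal of the neutrophil list ranged from 258610 to 531480 in DEP and from 314992 to 587641 in control, and that of the erythroid list from 227713 to 345607 and from 185036 to 342413. Every gene of both lists was measured in full, so these transcripts were present in both channels throughout. The part of marrow content in the members' ratios was not tested.

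**Figure D5:**
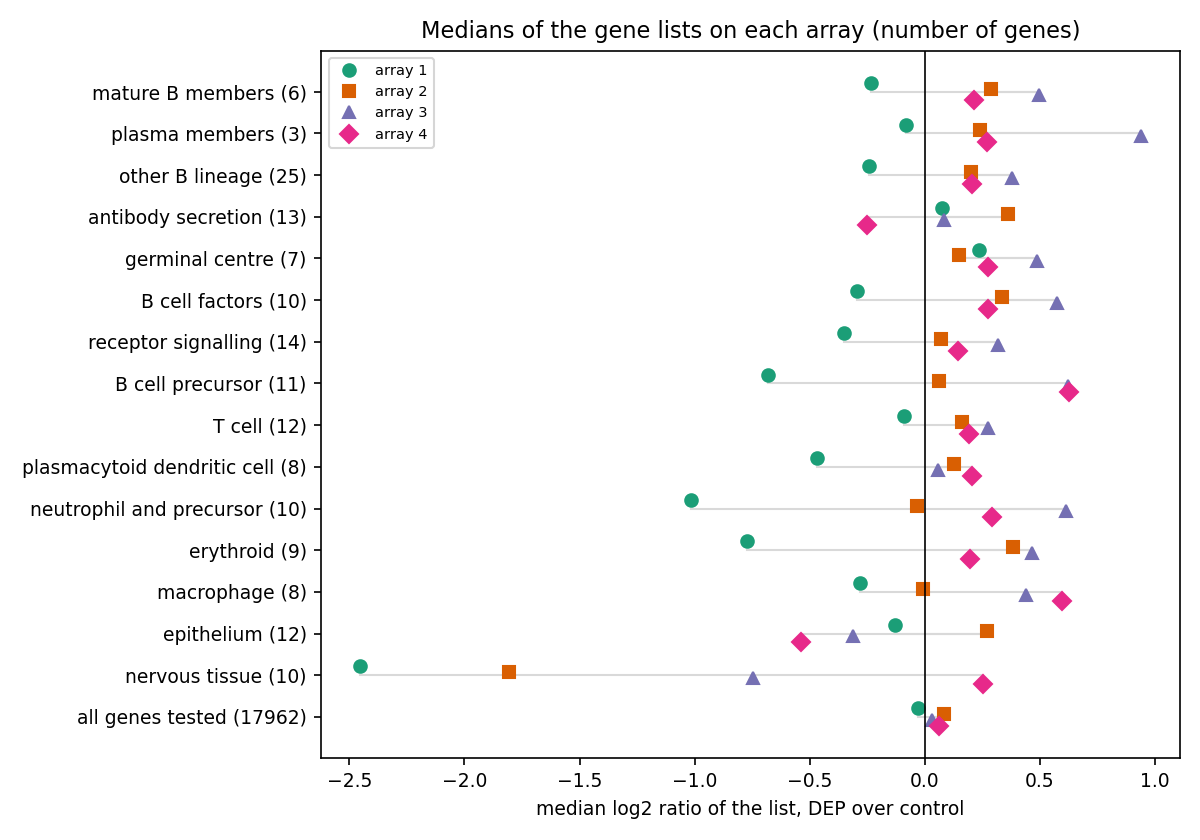
Median log2 ratio of DEP over control of each gene list on each of the 4 arrays, with the number of genes tested in parentheses. Array 1 is the lowest for every list drawn except antibody secretion and epithelium, where array 4 is, and germinal centre, where array 2 is, and the nervous tissue list spans -2.45 to 0.25.

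Outside marrow, the median of the nervous tissue genes was lowest on array 1 as well and that of the epithelium genes on array 4. Single epithelium genes differed, and on array 1 Krt5 had 2.17 and Muc5b -1.09. In nervous tissue 10 of 10 genes were lower in DEP by their means, 6 of them with an unadjusted p under 0.05. Their median was -2.45, -1.81, -0.75 and 0.25 on arrays 1 to 4. Their summed signal ranged from 29589 to 72126 in DEP and from 57314 to 98226 in control. The 12 genes of epithelium had medians of -0.13, 0.27, -0.31 and -0.54 and a median of -0.02 by their means, which was 0.08 with normexp and median centring, -0.29 without array 1, -0.17 without array 2 and 0.0067 without array 4. The part of either tissue in the members' ratios was not tested. Of 8 genes of plasmacytoid dendritic cells, which share Spib and other factors with B cells, 4 were higher and 4 lower.

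The pathways upstream and downstream of the members were read from 3 further lists. In the first, of factors that attract or support B cells, 10 of 12 genes had a probe, 8 were higher by their means, and the median was 0.51, or 0.12 after normexp and loess. Cxcl13, the chemokine that forms B cell follicles, was higher on all arrays at 0.71 ± 0.38 (SD, n = 4 arrays; p of 0.0102, adjusted p of 0.170, limma), and Ccl19, a chemokine of lymphoid tissue, at 0.49 ± 0.17 (p of 0.00870, adjusted p of 0.165, limma). Tnfsf13b, which encodes the ligand BAFF of BCMA, had 0.05 ± 0.45. Cxcl12, which holds B cell precursors and plasma cells in marrow, had 0.53 ± 0.62, Madcam1, an addressin of mucosal vessels, 0.70 ± 1.42, and Ltb, a lymphotoxin chain, -0.03 ± 0.31. Lta, the other lymphotoxin chain, had an unadjusted p under 0.05 as lower and was well above background on 1 array in DEP and on none in control.

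Signalling from the antigen receptor, with 14 genes, had a median of 0.03, which was -0.03 after normexp and loess, 0.17 without array 1 and 0.27 where arrays were centred on their medians after normexp. An unadjusted p under 0.05 was found for Pik3ap1 as higher, at 0.47 ± 0.20 (SD, n = 4 arrays), well above background on 2 arrays in DEP and 1 in control, and for Btk as lower. The brightest genes were Cd81 at -0.17 ± 0.53, Blnk, Plcg2 at 0.29 ± 0.16, Vav1 at 0.04 ± 0.37 and Prkcb at -0.49 ± 0.98. Plcg2, the phospholipase that follows the receptor, was higher in DEP on all 4 arrays, with an adjusted p of 0.273 in limma.

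Germinal centre genes, which mark B cells in an ongoing response, were mostly dim. Only Bcl6 and S1pr2 of the 7 were measured in full. Bcl6, which neutrophils and other cells express as well, had a mean ratio of 0.55 ± 0.40 (SD, n = 4 arrays; p of 0.0313, adjusted p of 0.234, limma) and S1pr2 had 0.12 ± 0.14. Gcsam, whose control channel was measured on 2 arrays, had an unadjusted p under 0.05 as higher, and Mybl1 had one as lower with no channel measured on any array. The median over the 7 genes, 0.55, was -0.17 with normexp and median centring.

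Finally, the genes most like the members across channels were sought. Each member measured in full was centred on its own mean over the 8 channel signals, and the median of these 7 profiles was -0.32, 0.28, 0.08 and 0.23 in DEP and 0.12, -0.10, -0.50 and 0.08 in control on arrays 1 to 4 (log2). Among the 14273 other genes compared, 212 had Pearson's r of at least 0.9 with it, over 8 values that share 4 arrays. The 10 highest, from 0.988 to 0.978, were Pola1, Tfrc, Ccnf, Trim59, Dek, Fignl1, Klf1, Klhl14, Spc25 and Cdt1. Pola1 and Cdt1 act in DNA replication, Ccnf and Spc25 in division, and Tfrc and Klf1 are erythroid genes. Only 3 of these 10 were among the 10 highest by Spearman's correlation and only 2 with the signals as deposited. Among the members, Ms4a1 had r = 0.936 with their own median profile, Jchain 0.844, Mzb1 0.776, Fcer2a 0.753, Cd79b 0.719, Cr2 0.434 and Cd22 -0.174. Each member is part of the profile it was set against, so these values are raised by the gene itself. Among all genes compared Ms4a1 still ranked only 101, Jchain 454 and Cd22 9584. Many other genes thus lay closer to the profile than any member did, and Cd22 did not follow it.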

How the data were processed

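Microarray data were the authors' scanner output for 4 two-colour Agilent arrays (1 slide, 1 scan). Per the file headers and labels, Feature Extraction 10.10.1.1 gave deposited intensities that were background-subtracted and dye-normalized (processed signals), and the deposited log10 ratio of Cy5 over Cy3. Here, ratios were brought to log2, outlier spots (164 to 274 per array) and spots without a ratio (6179 to 8558 of 43020) were dropped, and spots of a probe were averaged. Between 65.4% and 68.9% of probes were well above background in Cy5 and between 59.2% and 68.0% in Cy3, and no member spot was flagged or saturated. The number of arrays limits the precision. Accessions named 27655 of 39429 probes through RefSeq (GRCm38.p6), and the brightest probe stood for a gene. limma 3.58.1 (R 4.3.3) fitted an intercept to probes with a ratio on at least 3 arrays (lmFit, eBayes, prior df 1.98) with Benjamini-Hochberg adjustment over all 31577 probes, and the fit was tested on simulated data. Intervals are 95%. Signals were scaled between arrays by Aquantile. Across probes the arrays correlated at -0.24 (1 and 4) to 0.61 (1 and 2).

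Members and lists were chosen with earlier results of these data known. All member probes are named. Of each other list, up to 5 of the brightest genes measured in full were eligible, plus 13 set genes, plus the 10 genes most like the members, and genes named for their p were picked after seeing it. Some eligible values are not reported here. Alternatives were normexp (offset 50) with loess or median centring, the authors' ratio table, background filters, flagged spots kept, a variance trend, no moderation, another scaling, the mean of a gene's probes and leaving out each array. Python 3.11.15 (pandas 2.3.3, numpy 2.4.6, matplotlib 3.10.9) read the spots and promoters and drew the figures.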

Additional observations from a re-analysis of the deposited data

Results flagged for a closer look

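Of 30 sets of 4 values, the ratios and both channels' signals of each member probe, 3 had 1 array far from the others, by a gap that exceeded 0.83 of the whole range, where chance gives about 1 set in 20. For the brighter Cr2 probe (A_55_P1971729) the ratio of array 2, at 1.00, lay apart from ratios of 0.13 to 0.27, with a gap of 0.835 of the range. For Cd79b (A_51_P342652) the DEP signal of array 1, at 5150, lay below 9274 to 9891, a gap of 0.901 of the range on the log2 scale. Jchain (A_51_P150710) had a DEP signal of 974 on array 1 against 1450 to 1525 on the others, a gap of 0.887. The last 2 come from the same extract. No cause was tested.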

How the results depend on the processing

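An adjusted p under 0.05 was reached by 0 member genes under every alternative run, also where normexp and median centring gave 4110 such probes in all. That setting gave 4 member genes with an unadjusted p under 0.05 in place of 2 (38.6% of all probes), 1 member gene lower on all arrays, as did normexp with loess (1), and turned the mean ratio of Tnfrsf17 to -0.14, of Cd79b to 0.26, of Mzb1 to 0.18, of the second Cr2 probe to -0.042 and of Cd22 to 0.11. The unadjusted count was 1 with a filter on background in 1 channel (16.3% of all probes), 1 in both (15.5%) and 1 without moderation (15.4%). With 1 array left out it ranged from 0 to 2, the count past 2-fold from 0 to 1 and the count higher on all arrays from 3 to 5. The unadjusted count was 0 without array 2 and 0 without array 3, where it held for 11.2% and 12% of all probes. Without array 1, 5 genes were higher on all of the 3 arrays left, a rule easier to meet for any probe than 1 sign on 4 arrays. Under these settings the shares of all probes with 1 sign or past 2-fold were not counted. Nothing particular to the members was read from those counts. With 1 array left out, mean ratios that changed sign ranged from -0.38 to 0.084 for Cd79b, -0.33 to 0.20 for Mzb1 and -0.00030 to 1.13 for Blk. In the same runs the second Cr2 probe ranged from -0.0064 to 0.26 and Cd22 from -0.087 to 0.061. The median over the members ranged from 0.06 (without array 3) to 0.41 (without array 4), and was 0.15 with normexp and loess. Of the 10 genes most like the members, 3 were kept with Spearman's correlation and 2 with the signals as deposited. The cause of these shifts was not tested. The ratio of each array pairs its DEP and control extracts, so every fit above is a paired one. Signal over background limits Tnfrsf17, Blk and the second Cr2 probe.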
